A study of Mus musculus with 4 samples.

Results

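Keratin genes of the mouse nasal mucosa were described across 4 arrays, one for each combination of wild type or labelled Duox2-/- with PBS or flagellin. The members were all genes whose symbol is Krt followed by a number and at most 1 letter, which leaves out the keratin-associated proteins. The rule found 52 keratins among 19938 genes measured by a probe set of a single gene, and each keratin had 1 probe set. It used no measured value, and it takes in simple epithelial, hair and inner root sheath keratins beside those of basal and squamous epithelium.

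RNA came from the mucosa lifted off the nasal septum and turbinates of mice 8 weeks old, all of a strain labelled C56BL/6. Wild-type (Duox2+/+) or Duox2-/- mice received PBS, the control, or flagellin at 5 ug/ml for 4 h, and 25 ul was given to each nostril. Duox2 is an NADPH oxidase that makes hydrogen peroxide at epithelial surfaces, and flagellin is the protein of bacterial flagella that Toll-like receptor 5 senses. Each of the 4 groups had 1 array, so the number of arrays limits the precision, no difference below has a replicate check and no p-value is given. Whether an array holds 1 mouse or a pool, and how the Duox2 allele was altered, are not given in the sources used here. The Duox2 probe set read 4.95 (PBS) and 5.12 (flagellin) in wild type, against 5.23 and 5.50 in the arrays labelled Duox2-/-, so it was not lower there and the genotype is given below as labelled. The values are log2 RMA signals, and a keratin was ranked if its highest value reached 6.52, the median of all values, which stands for signal over background. All 4 Duox2 values lay under 6.52, so this probe set cannot tell whether Duox2 was lost. Of the 52 keratins, 19 were ranked, beside 12471 of all genes. The one just inside was Krt12, with a highest value of 6.57, and just outside were Krt90 at 6.49 and Krt75 at 6.47. A keratin that reached the floor only through the array where it is high had to differ, so counts and medians over the 19 are descriptions and are set beside those over all 52. The interquartile range of all probe sets was 2.79 and 2.73 in the wild-type arrays and narrower, 2.54 and 2.43, in those labelled Duox2-/-.

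Keratins are the intermediate filament proteins of epithelial cells. A filament is built from pairs of an acidic type I keratin and a basic type II keratin, and epithelia are recognised by the pairs they use: Krt5 with Krt14 in basal cells, Krt1 with Krt10 in cornifying layers, Krt4 with Krt13 in moist stratified lining, and Krt8 with Krt18 in simple and glandular epithelium. In the nose, Krt5 and Krt14 mark the basal cells of respiratory epithelium and the horizontal basal cells of olfactory epithelium, while squamous lining occurs towards the nostril.

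The label of basal and squamous epithelium was set against markers of both. All 8 basal markers, among them Trp63, Itga6 and Col17a1 beside the basal keratins, reached the floor of 6.52 in each of the 4 arrays. Of 11 squamous marker symbols 9 were matched, Krt1, Krt4, Krt10 and Krt13 among them. Of the 9, 7 reached the floor in the wild-type flagellin array, 3 in wild-type PBS, and 0 (PBS) and 1 (flagellin) in the arrays labelled Duox2-/-. The 3 in wild-type PBS were the keratins Krt1, Krt4 and Krt13. Apart from keratins, Lor, Krtdap and Sbsn reached it in wild-type flagellin, and Sbsn alone in flagellin labelled Duox2-/-. Both lists hold keratins described here, so to that extent these are set against themselves. The late squamous gene Ivl stayed between 4.64 and 4.88 in all arrays. Basal markers were therefore above the floor in every array, whereas squamous markers mostly reached it in the wild-type flagellin array.

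Start regions of Krt5, Krt14, Krt10 and Krt13 are shown because these 4 keratins of stratified epithelium were past 2-fold lower in the flagellin comparison by genotype and had a RefSeq start window. Every window is 300 bases long and spans the gene start on GRCm38.p6, and the build of the array's probe sets is not known. Capitals mark TATAAA, the related spelling ATAAAAG, which was chosen after the sequences were seen, TGANTCA, and GGGCGG, a site of Sp1 factors, searched on both strands. TGANTCA, where N is any base, takes in the site of AP-1 factors but is looser than it. TATAAAAG holds the first and the second at once.

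Krt5, chr15:101712856-101713155, strand minus: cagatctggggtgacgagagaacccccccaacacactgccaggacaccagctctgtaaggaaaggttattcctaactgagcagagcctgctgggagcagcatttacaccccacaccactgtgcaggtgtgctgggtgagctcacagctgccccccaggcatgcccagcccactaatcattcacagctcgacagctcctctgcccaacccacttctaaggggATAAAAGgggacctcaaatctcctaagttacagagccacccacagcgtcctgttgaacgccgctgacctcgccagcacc
Krt14, chr11:100205981-100206280, strand minus: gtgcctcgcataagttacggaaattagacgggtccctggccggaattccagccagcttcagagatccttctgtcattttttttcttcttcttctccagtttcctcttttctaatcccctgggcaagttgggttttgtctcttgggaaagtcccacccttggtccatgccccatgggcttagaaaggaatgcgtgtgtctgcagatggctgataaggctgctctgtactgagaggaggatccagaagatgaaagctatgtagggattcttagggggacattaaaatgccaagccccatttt
Krt10, chr11:99389315-99389614, strand minus: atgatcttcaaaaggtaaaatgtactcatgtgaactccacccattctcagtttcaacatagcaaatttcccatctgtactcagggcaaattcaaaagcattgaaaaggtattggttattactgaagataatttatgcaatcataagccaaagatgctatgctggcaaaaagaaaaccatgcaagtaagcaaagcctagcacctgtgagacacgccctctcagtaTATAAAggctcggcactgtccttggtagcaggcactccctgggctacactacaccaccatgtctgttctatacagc
Krt13, chr11:100121517-100121816, strand minus: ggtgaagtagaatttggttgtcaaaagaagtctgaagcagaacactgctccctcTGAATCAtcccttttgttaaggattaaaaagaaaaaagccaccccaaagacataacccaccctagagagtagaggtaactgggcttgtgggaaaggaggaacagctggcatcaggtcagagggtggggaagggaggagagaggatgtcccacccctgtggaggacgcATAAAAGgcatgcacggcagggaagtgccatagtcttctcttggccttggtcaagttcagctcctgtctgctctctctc

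ATAAAAG began at position -29 from the start in Krt5 and Krt13, and TATAAA at -26 in Krt10, while the Krt14 window held none of the 4 motifs. There were 37 windows with a keratin symbol, and 36 of the 52 keratins had a window. Among the 37 keratin windows 51.4% held TATAAA against 13.6% of 32851 windows of all genes, and 35.1% held ATAAAAG against 5.42%. GGGCGG was in 5.41% of keratin windows and in 35.7% of all windows. For TGANTCA these shares were 5.41% and 7.81%. Of the 10 ranked keratins with a window, 4 held TATAAA and 4 ATAAAAG. These matches describe letters in the windows only.

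Basal keratins were high in both wild-type arrays and lower in both arrays labelled Duox2-/-. Krt5, the type II keratin of basal cells, had log2 values of 10.40 (PBS) and 10.55 (flagellin) in wild type, and 9.38 (PBS) and 8.26 (flagellin) in the arrays labelled Duox2-/-. Krt14, its type I partner, had 8.55, 8.84, 7.80 and 7.48 in the same order. Both wild-type arrays thus lay above both labelled Duox2-/-, and the flagellin array labelled Duox2-/- was the lowest.

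Krt15, a type I keratin of basal cells that lie at rest, had log2 values of 8.93, 9.10, 8.24 and 7.31 in the order given for Krt5. Krt17, which basal cells and epidermal appendages make and injury induces, had 7.20, 7.34, 6.77 and 6.42. The 4 basal keratins shared one order of arrays, from wild-type flagellin down through wild-type PBS and PBS labelled Duox2-/- to flagellin labelled Duox2-/-. This order was not particular to them, as Krt1, Krt10, Krt4, Krt13, Krt6a and Krt6b had it too. So did Krt19 and Krt7, whose wild-type values were nearly equal. Its share over all genes was not counted.

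Keratins that wounding and inflammation induce in stratified epithelium spread more widely. Krt6b, a type II keratin, had log2 values of 7.51 (PBS) and 8.73 (flagellin) in wild type, and 6.41 (PBS) and 5.07 (flagellin) in the arrays labelled Duox2-/-. Krt6a, its near copy in the genome, had 7.08, 7.86, 5.85 and 5.41. Krt6a and Krt6b are so alike that probes may read both, and their values are uncertain as separate genes.

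Krt16, the usual type I partner of Krt6a, did not share this order. It lay under the floor in all 4 arrays, at log2 values of 4.48, 4.72, 5.09 and 5.59 from wild-type PBS to flagellin labelled Duox2-/-. Its highest value was in the array where Krt6a and Krt6b were lowest.

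Keratins of cornifying layers stood out in a single array. Krt1, the type II keratin made when cells leave the basal layer, had log2 values of 6.70 (PBS) and 8.74 (flagellin) in wild type, and 6.16 (PBS) and 5.52 (flagellin) in the arrays labelled Duox2-/-. Krt10, its type I partner, had 6.44, 8.08, 6.15 and 5.94. For Krt10 the wild-type flagellin array alone was above the floor. Krt80, a type II keratin of many epithelia, had 6.66, 6.64, 6.54 and 6.64, nearly the same in all arrays.

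Other cornifying keratins were not above the floor: Krt2, of upper epidermal layers, lay between 3.91 and 4.47, and Krt9, of palm and sole skin, between 3.94 and 4.61. The cornifying set as a whole therefore did not move together, and Krt1 and Krt10 set its range.

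Of the keratins of moist stratified lining, Krt13, a type I keratin of oral and oesophageal lining, had log2 values of 6.83, 7.61, 5.64 and 5.51 in the order given for Krt1. Krt4, its type II partner, had 7.20, 7.38, 6.18 and 5.59. Both were above the floor in the wild-type arrays and below it in the arrays labelled Duox2-/-. Krt12, the keratin of corneal epithelium, went the other way at 5.88, 6.04, 6.11 and 6.57, and Krt76, of palate lining, stayed between 3.87 and 4.19.

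Simple epithelial keratins included 5 ranked members. Krt8, the type II keratin of simple and glandular epithelium, had log2 values of 10.03, 9.91, 9.55 and 9.30, and Krt18, its type I partner, 10.16, 9.82, 9.57 and 9.50. Krt19, a type I keratin of ductal and airway epithelium, had 9.92, 9.95, 9.42 and 8.59. In each of these 3 the wild-type arrays were the higher ones.

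Krt7, a type II keratin of ducts and airways, had log2 values of 8.76, 8.76, 8.42 and 7.63, so that the flagellin array labelled Duox2-/- stood apart from the other 3. Krt23, a type I keratin, had 9.01, 8.52, 8.15 and 7.79. Its PBS array was the higher one in both genotypes. Krt20, of intestinal and urothelial lining, lay under the floor between 4.41 and 4.86.

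**Figure D1:**
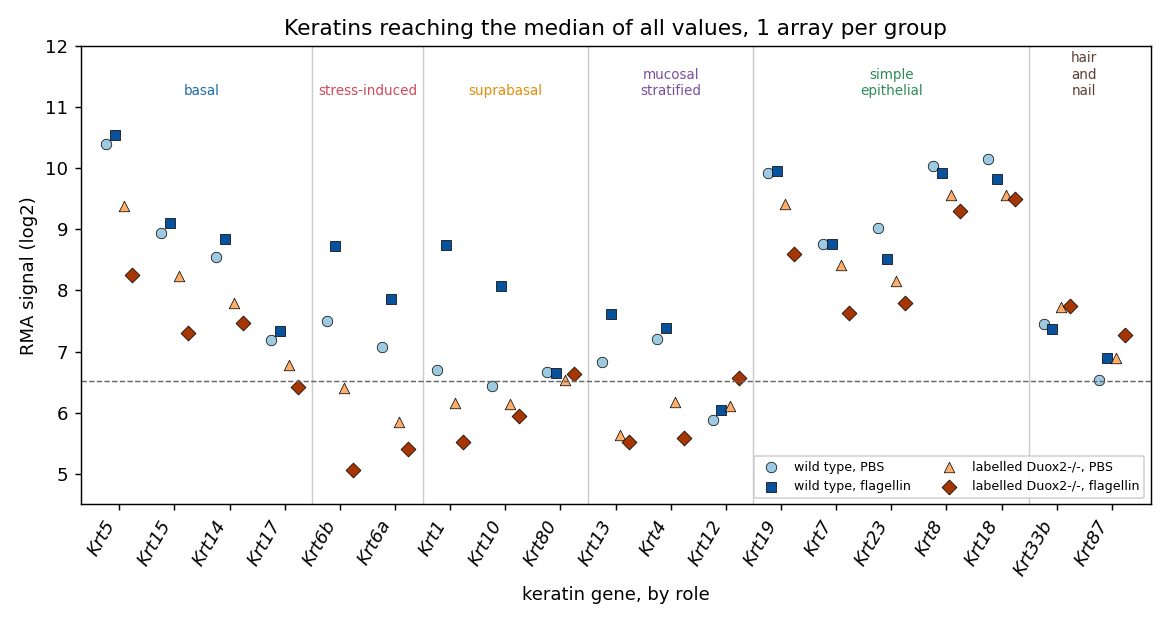
Log2 RMA signal (vertical axis) of the 19 ranked keratins, grouped by role (horizontal axis), with 1 point per array and the dashed line at 6.52, the median of all values. Basal keratins step down from the wild-type arrays to the flagellin array labelled Duox2-/-, and Krt1 and Krt10 are highest in the wild-type flagellin array at 8.74 and 8.08.

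Hair and root sheath keratins gave little signal. None of the 9 keratins of the inner root sheath and companion layer reached the floor, and of 13 matched hair and nail keratins only Krt33b and Krt87 did. Krt33b had log2 values of 7.45, 7.37, 7.73 and 7.74 and Krt87 had 6.53, 6.89, 6.89 and 7.27, both highest in flagellin labelled Duox2-/-. Among 8 hair follicle markers at most 2 reached the floor in an array. The keratins with no listed role, Krt222, Krt42, Krt88 and Krt90, were under the floor as well. The 33 keratins under the floor leaned upwards in the arrays labelled Duox2-/-: 30 were above 0 for that array minus wild type under PBS and 32 after flagellin, with medians of 0.30 and 0.43. All 7467 genes under the floor had medians of 0.21 and 0.28 in the same comparisons, with 79.8% above 0 in each, so dim keratins and dim genes leaned the same way.

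The first comparison, of both wild-type arrays, asks which keratins shift with the bacterial protein in normal mucosa. Of the 19 ranked keratins 3 were past 2-fold higher in the flagellin array: the cornifying pair Krt1 and Krt10 and the stress keratin Krt6b. Krt1 was higher by a log2 difference of 2.04 (4.12-fold), Krt10 by 1.64 and Krt6b by 1.22. Krt6a was at 0.79, Krt13 at 0.78 and Krt16 at 0.24. The 3 keratins stand beside 0.922% of all ranked genes, and 0 keratins were lower past 2-fold, beside 0.0561% of genes.

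The basal keratins were between 0.15 and 0.28 in this comparison, led by Krt14, and the simple keratins between -0.50, for Krt23, and 0.04. Krt8 was at -0.11 and Krt18 at -0.34. The median of the 19 ranked keratins was 0.15, that of all 52 was 0.09 and that of all ranked genes was 0.00. Between partner keratins the gap in this difference, type II minus type I, was 1.07 for Krt6b and Krt17, -0.60 for Krt4 and Krt13, 0.54 for Krt6a and Krt16, 0.40 for Krt1 and Krt10, 0.22 for Krt8 and Krt18 and -0.13 for Krt5 and Krt14.

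Proteins that keratin filaments attach to, or that seal squamous cells, were read from lists of partner genes. In the wild-type flagellin array 4 of 12 ranked cornified envelope genes were past 2-fold higher: Lor, a main envelope protein, by 1.54, Hrnr, related to filaggrin, by 1.51, Krtdap, made by differentiating keratinocytes, by 1.45, and Sprr1a, a cross-linked envelope precursor, by 1.08. Of 10 desmosome genes 1 was past 2-fold, the cadherin Dsg3 of lower stratified layers at 1.08, and of 8 hemidesmosome genes 0 were. Of all ranked genes 0.922% were past 2-fold higher. The medians of the 3 lists were 0.24, 0.00 and -0.07.

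Markers of other tissues differed between the same arrays. All 10 skeletal muscle markers were higher in wild-type flagellin, beside 49.5% of all ranked genes. Their list median was 6.72 against 5.32 in wild-type PBS, with 5 against 0 over the floor. Neutrophil markers had list medians of 7.34 and 5.57, and 5 of 7 ranked ones were past 2-fold higher, beside 0.922% of all ranked genes. Pan-epithelial markers such as Epcam and Cdh1 had list medians of 8.65 and 8.60, and all 8 were over the floor in both arrays. The part of these markers in the keratin differences was not tested. In a tissue piece, fewer cells of a type and less RNA per cell cannot be told apart.

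The second comparison asks the same of mice labelled as lacking the oxidase. Of the 19 ranked keratins 2 were past 2-fold lower in the flagellin array, the stress keratin Krt6b and the basal keratin Krt5, and 0 were past 2-fold higher. Krt6b was lower by a log2 difference of -1.34 (2.53-fold) and Krt5 by -1.12 (2.18-fold). Short of 2-fold were Krt15 at -0.93, Krt19 at -0.83, Krt7 at -0.79, Krt1 at -0.63 and Krt4 at -0.59, and Krt16 was at 0.50. The 2 keratins stand beside 0.505% of ranked genes, and the 0 higher beside 0.176%.

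Within the pairs, Krt5 changed more than Krt14, which was at -0.32, and Krt1 more than Krt10, which was at -0.21. Krt8 and Krt18 were at -0.25 and -0.07. The median of the 19 was -0.36, that of all 52 was 0.11 and that of all ranked genes was -0.07, so the sign of the keratin median rests on which keratins are counted.

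Among partner genes, 8 of 8 hemidesmosome genes were below 0 with a median of -0.40, led by Itga6, the integrin that anchors basal cells, at -0.79. Of 10 desmosome genes 8 were below 0 with a median of -0.40, and Perp, a desmosome protein under p63 control, was at -0.75. None of either list was past 2-fold, and 62.2% of all ranked genes were below 0. Trp63, which encodes the p63 factor of basal cells, was at -0.44. Sprr1a was at -0.91 and Krtdap at -0.58, while the 19 cornified envelope genes had a median of 0.00.

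Muscle, vessel and fibroblast markers were lower in the same flagellin array, and so were most tooth markers. Tooth markers were lower in 6 of 8 (median -1.01), and 3 of 3 ranked ones were past 2-fold lower, beside 0.505% of all ranked genes. All 10 skeletal muscle markers were lower, with list medians of 5.75 against 8.15 in PBS labelled Duox2-/-. All 6 endothelial and all 7 fibroblast markers were lower too, with median differences of -0.70 and -0.48, beside 62.2% of all ranked genes below 0. Olfactory neuron markers were higher in 8 of 8, by a median of 0.35, and sustentacular markers, of the supporting cells of olfactory epithelium, in 5 of 6, by 0.23. The pan-epithelial list had medians of 8.20 and 8.25 in flagellin and PBS. The part of these markers in the keratin differences was not tested.

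**Figure D2:**
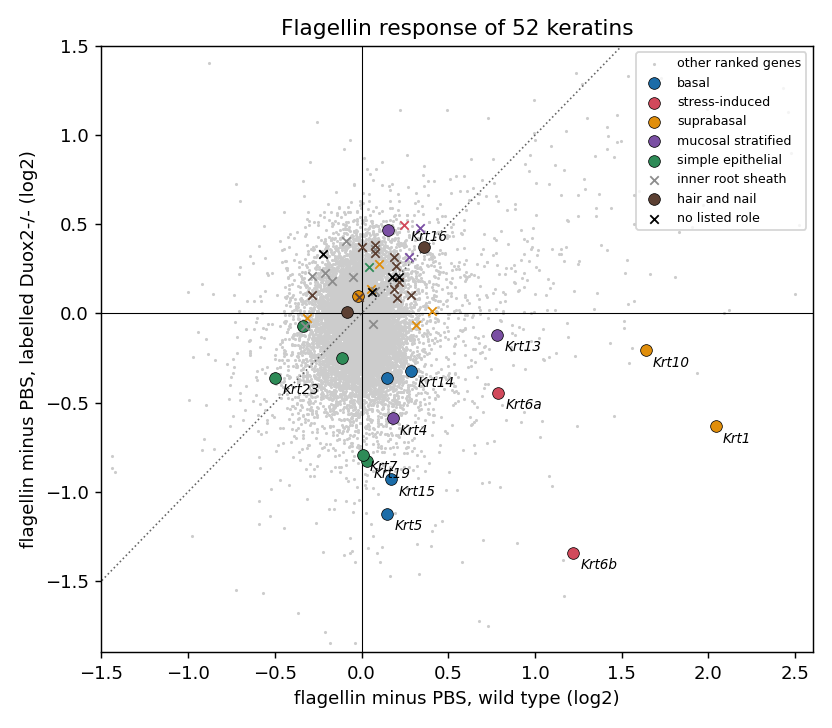
Flagellin minus PBS (log2) in wild type (horizontal axis) and in the arrays labelled Duox2-/- (vertical axis) for the 52 keratins, with ranked ones as circles, those under the floor as crosses, other ranked genes in grey (a few lie beyond the axes) and equal responses on the dotted line. Krt1 and Krt10 lie far right at 2.04 and 1.64, and Krt5, Krt15, Krt19 and Krt7 lie low, near 0 on the horizontal axis.

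The difference between these responses asks whether flagellin shifted keratins alike in both genotypes. The wild-type response minus that labelled Duox2-/- was past 2-fold above 0 for 6 of 19 ranked keratins, beside 1.44% of ranked genes, and past 2-fold below 0 for 0 keratins, beside 0.136%. The 6 were Krt1 at 2.67, Krt6b at 2.56, Krt10 at 1.85, Krt5 at 1.27, Krt6a at 1.23 and Krt15 at 1.101. Krt15 came to 0.990 after cyclic loess and 0.999 against the pan-epithelial markers, short of 2-fold, which leaves 5. In all 6 the response was above 0 in wild type and below 0 in the arrays labelled Duox2-/-, a pair of signs not counted over all genes. The difference was not tested, since each genotype had 1 pair of arrays.

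These 6 arose in unlike ways. For Krt1 and Krt10 the wild-type array supplied most of the difference, with responses of 2.04 and 1.64 against -0.63 and -0.21. For Krt5 and Krt15 the arrays labelled Duox2-/- did, with -1.12 and -0.93 against 0.15 and 0.17. Krt6b had both, at 1.22 and -1.34. Simple keratins split: Krt19 was at 0.86 and Krt7 at 0.80, but Krt8 at 0.13, Krt23 at -0.14 and Krt18 at -0.27.

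Partner genes with a difference past 2-fold were 5 of 12 ranked cornified envelope genes, with Krtdap at 2.03, Sprr1a at 1.99, Hrnr at 1.60, Lor at 1.49 and Sprr3 at 1.43, and 1 of 10 desmosome genes, Dsg3 at 1.33. None of 8 hemidesmosome genes and none of 9 ranked stratification factors passed. Over all ranked genes 1.44% did. Gata3, a factor of epithelial differentiation, was at 1.18 but lay under the floor in all 4 arrays. The list of 10 other intermediate filament genes, such as Vim, Des and the lamins, had a median of 0.18, with Des at 0.54 and 0 past 2-fold among 7 ranked. Muscle markers had a median difference of 3.39 (8 of 8 ranked past 2-fold), neutrophil markers 0.96 (3 of 7), fibroblast markers 0.88 (1 of 7), tooth markers 0.74 (3 of 3) and endothelial markers 0.74 (0 of 6), and their part in the keratin values was not tested.

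Comparing the PBS arrays asks how keratins differed by labelled genotype in mice given PBS and no flagellin. Of the 19 ranked keratins 5 were past 2-fold lower in the array labelled Duox2-/-: Krt6a and Krt6b of the stress keratins, Krt4 and Krt13 of moist lining and Krt5 of the basal cells. Krt6a was lower by a log2 difference of -1.22 (2.34-fold), Krt13 by -1.20, Krt6b by -1.10, Krt4 by -1.02 and Krt5 by -1.02. Krt16, Krt24 and Krt12 of the same lists were at 0.62, 0.30 and 0.22. The 5 keratins stand beside 0.281% of ranked genes that were lower past 2-fold, while 0 keratins and 1.13% of ranked genes were higher past it.

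Short of 2-fold, Krt23 was at -0.86, Krt14 at -0.76, Krt15 at -0.69, Krt18 at -0.59 and Krt8 at -0.47. The cornifying pair differed less, with Krt1 at -0.54 and Krt10 at -0.29. Of the 19 ranked keratins 16 were below 0, as were 57.7% of all ranked genes. The median was -0.54 over the 19, 0.19 over all 52 and -0.04 over all ranked genes.

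Several lists of epithelial genes lay below 0 in the same comparison, with 0 members past 2-fold. All 8 pan-epithelial markers were below 0, with a median difference of -0.39 and values from -0.61 to -0.04, and all 7 ciliated cell markers were, with a median of -0.26. Of 10 desmosome genes 8 were below 0 (median -0.42), led by Dsg3 at -0.81, whereas 12 of 19 cornified envelope genes were above 0 (median 0.03). Squamous markers were above 0 in 5 of 9, and those below 0 were the keratins Krt1, Krt4, Krt10 and Krt13. Muscle markers were higher in 10 of 10 (median 2.57), tooth markers in 8 of 8 (1.44) and fibroblast markers in 6 of 7 (0.41). These counts stand beside 42.3% of ranked genes above 0 and 79.8% of genes under the floor. When each array was set against the median of its pan-epithelial markers, an alternative chosen after seeing the data, 0 keratins were past 2-fold lower, and Krt6a, Krt13, Krt6b, Krt4 and Krt5 were at -0.87, -0.85, -0.75, -0.67 and -0.67. Krt5 also came to -0.96 after a further quantile normalisation and -0.97 after cyclic loess, under 2-fold.

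Comparing the flagellin arrays gave the widest keratin differences of the 4 pairwise comparisons. Krt6b was lower in the array labelled Duox2-/- by a log2 difference of -3.66 (12.6-fold), Krt1 by -3.22 (9.30-fold), Krt6a by -2.46 and Krt5 by -2.29 (4.89-fold). Krt10 was at -2.14, Krt13 at -2.10, Krt15 at -1.80 and Krt4 at -1.79. Krt14 and Krt19 were both at -1.36 and Krt7 at -1.14, which came to -0.96 after cyclic loess. These 11 of 19 ranked keratins stand beside 1.65% of ranked genes, and 0 higher past 2-fold beside 0.353%.

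Krt17 was at -0.93, Krt23 at -0.73, Krt8 at -0.61 and Krt18 at -0.32, so the simple pair differed far less than the basal pair. Krt80 was at -0.01, Krt33b and Krt87 were both at 0.37 and Krt12 was at 0.53. The median was -1.36 over the 19, against -0.12 over all ranked genes. Over all 52 keratins it was 0.28, of the opposite sign, because the 33 under the floor outnumber the ranked ones. None of those 33 passed 2-fold in any comparison, so the counts of keratins past 2-fold are the same over all 52.

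The flagellin array labelled Duox2-/- held the lowest of the 4 values for 15 of 19 ranked keratins. Over all ranked genes this share was 51%. None of the 33 keratins under the floor was lowest there, so the count was 15 of all 52 keratins (28.8%), against 35.7% of all 19938 genes. The other 4 ranked keratins were Krt12, Krt33b, Krt80 and Krt87. The flagellin and PBS comparisons by genotype share no array, while each shares arrays with the flagellin responses.

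**Figure D3:**
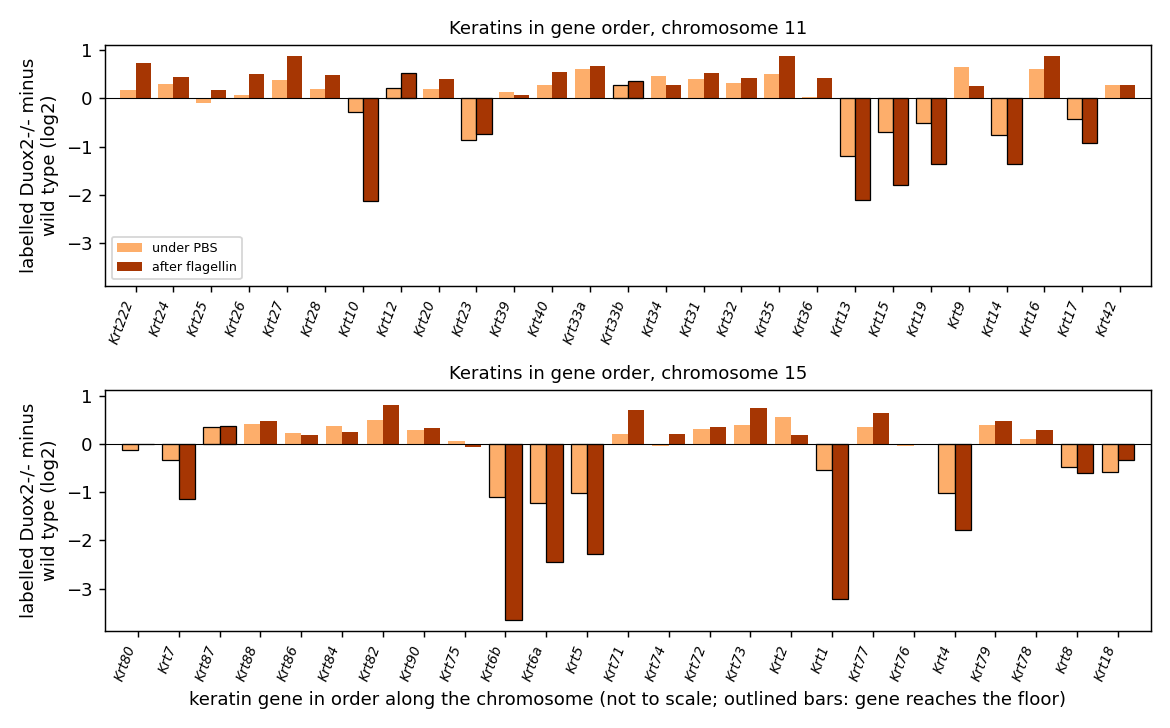
Array labelled Duox2-/- minus wild type (log2, vertical axis) under PBS and after flagellin for the 52 keratins in gene order along chromosomes 11 and 15 (horizontal axis, not to scale), with bars of ranked genes outlined. Krt6b, Krt6a and Krt5 are neighbours and reach -3.66, -2.46 and -2.29 after flagellin, beside Krt71, which is at 0.70.

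Keratin genes lie in a pair of clusters, and gene order was read from the RefSeq annotation of GRCm38.p6. The cluster on chromosome 11 held 27 of the 52 and that on chromosome 15 held 25, among them Krt18, the type I keratin beside Krt8. On chromosome 15, Krt6b, Krt6a and Krt5 follow each other, and on chromosome 11, Krt13, Krt15 and Krt19 do. After flagellin, the latter 3 were lower by -2.10, -1.80 and -1.36. Beyond Krt9, which lay under the floor and was at 0.26, Krt14 and Krt17 were at -1.36 and -0.93. Krt16, also under the floor, lies between Krt14 and Krt17 and went the other way, at 0.87.

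Partner genes in the flagellin comparison by genotype followed the keratins in part. Of 12 ranked cornified envelope genes 5 were past 2-fold lower, with Sprr1a at -2.43, Krtdap at -1.88, Hrnr at -1.85, Sprr3 at -1.42 and Lor at -1.14. Of 10 desmosome genes 3 were, namely Dsg3 at -2.14 and the desmocollins Dsc2 at -1.31 and Dsc3 at -1.28. Of 8 hemidesmosome genes 0 were, although 8 of 8 were below 0, with a median of -0.29. All ranked genes had a median of -0.12 here, with 66.8% below 0 and 1.65% past 2-fold lower. The stratification factors had a median of -0.56 with 10 of 11 below 0 and 0 past 2-fold, among them Ehf, an epithelial ETS factor, at -0.88 and Trp63 at -0.64. Sprr3 and Dsc3 are named because they passed 2-fold, so they were chosen after their values were seen.

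Pan-epithelial markers were lower here too, in 8 of 8 with a median of -0.45, from Epcam at -0.16 to Elf3, an epithelial ETS factor, at -1.23, the 1 past 2-fold. Endothelial markers were lower in 6 of 6 (median -0.70), fibroblast markers in 7 of 7 (-0.32) and skeletal muscle markers in 7 of 10 (-0.66). These counts stand beside 66.8% of all ranked genes below 0. Olfactory neuron markers were higher in 8 of 8 (0.16), and tooth markers, 3 of them ranked, in 8 of 8 (0.70). Sustentacular markers were split at 3 and 3. Set against the pan-epithelial markers, 8 of the 11 keratins were still past 2-fold lower, and Krt14, Krt19 and Krt7 were at -0.91, -0.91 and -0.68. This setting shifts every gene by the same amount, and it moved the median of all ranked genes from -0.12 to 0.33. The part of tissue make-up in the keratin differences was not tested.

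**Figure D4:**
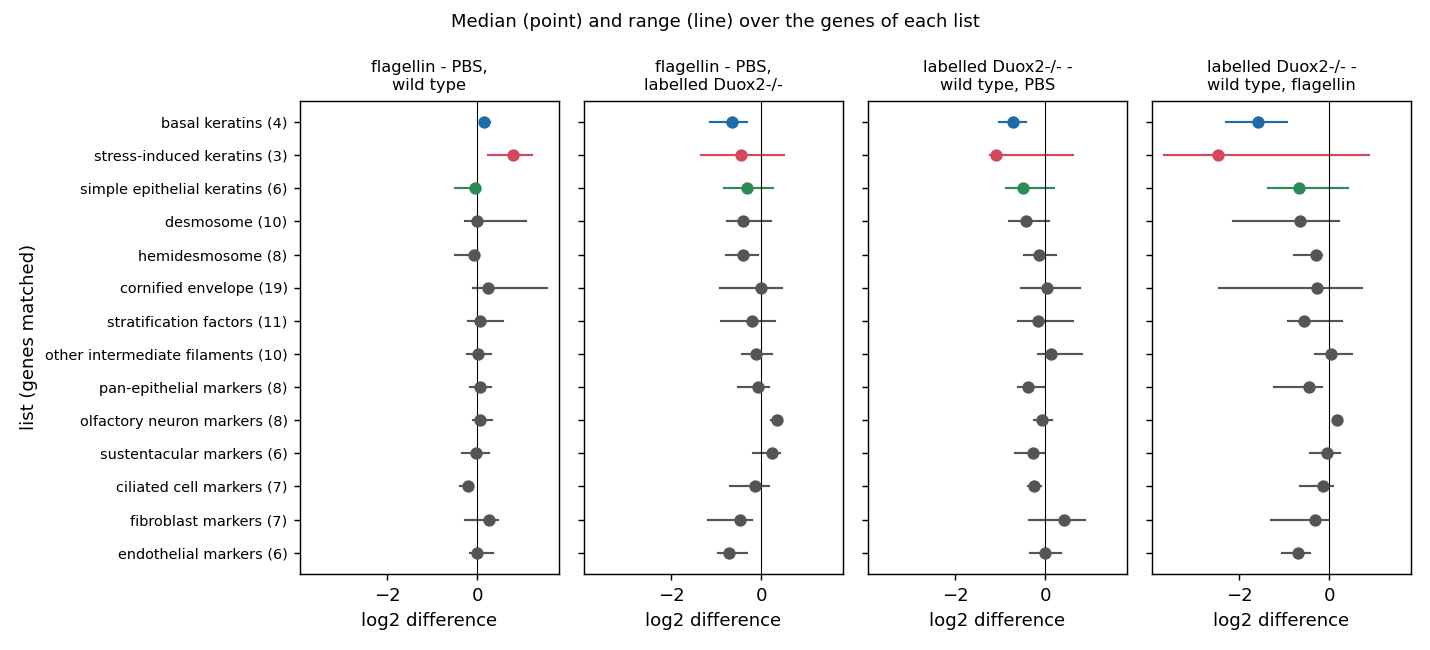
Median (point) and range (line) of the log2 difference (horizontal axis) over the genes of keratin, partner and marker lists (vertical axis, with the number of genes matched) in the 4 pairwise comparisons. Basal keratins have medians of 0.16, -0.65, -0.73 and -1.58 from left to right, beside pan-epithelial markers at 0.06, -0.08, -0.39 and -0.45.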

How the data were processed

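Total RNA of nasal mucosa was labelled with biotin using an Affymetrix whole-transcript kit and read on 4 arrays, 1 per group. The deposited table holds log2 values, judged from their range. RMA and Affymetrix Expression Console 1.1 are named for the authors' processing, per the submitters' processing notes. No genome build is named for the probe sets. No further normalisation was applied. The table held 35556 probe sets, of which 21789 were paired with 1 gene, 1621 with several and 12146 with none. A gene with several probe sets is represented by that of the highest mean over the 4 arrays. No probe set of several genes named a keratin.

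Differences are of log2 values, counted at 2-fold among genes whose highest value reached 6.52. All keratins meeting this were named, and of partner lists up to 4 genes with the largest absolute difference of responses, with exceptions stated beside them. There were 7 keratin role lists, 5 partner lists and 12 marker lists, which share members. The members, lists and rules were chosen with earlier results of these data known. Alternatives were other normalisations, floors, probe set rules and sizes. Steps were tested on simulated data. Tools were Python 3.11.15, numpy 2.4.6, pandas 2.3.3, matplotlib 3.10.9, R 4.3.3 and limma 3.58.1, the last only for renormalisation.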

Additional observations from a re-analysis of the deposited data

Results flagged for a closer look

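The flagellin response had opposite signs in the wild-type arrays and in those labelled Duox2-/- and differed by over 2-fold for 6 ranked keratins. Of all ranked genes 1.44% had a difference past 2-fold in this direction, and how many of these had opposite signs was not counted. Some of the signs rest on small values, such as 0.15 for Krt5 and 0.17 for Krt15 in wild type and -0.21 for Krt10 labelled Duox2-/-. The difference, wild type minus labelled Duox2-/-, was 2.67 for Krt1, 2.56 for Krt6b, 1.85 for Krt10, 1.27 for Krt5, 1.23 for Krt6a and 1.101 for Krt15 on the log2 scale. With 1 pair of arrays per genotype it was not tested. Krt15 came to 0.990 after cyclic loess and 0.999 against the pan-epithelial markers, under 2-fold.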

How the results depend on the processing

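No paired analysis was possible because each group had 1 array, and no array was left out for the same reason. The 5 keratin counts that were 0 were also 0 under each alternative run. The median over keratins depended on which were counted. With no floor it was 0.28 for the genotype difference after flagellin, of the opposite sign to the -1.36 over ranked keratins, 0.11 for the flagellin response labelled Duox2-/-, 0.19 for the PBS comparison and -0.063 for the difference of responses. With a floor at the 75th percentile, which kept 12 keratins, these medians were -1.58 after flagellin, -0.54 for the response labelled Duox2-/- and 0.98 for the difference, and 3 keratins were lower under PBS. At a size of 1.5-fold the counts were 5 higher in wild type, 7 lower with flagellin labelled Duox2-/-, 9 lower under PBS and 11 in the difference. The genotype median after flagellin was -1.19 after cyclic loess and -1.21 after a further quantile normalisation.

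Setting arrays against pan-epithelial markers, chosen after seeing the data, gave medians of -0.19 under PBS, -0.91 after flagellin and 0.67 for the difference, and 0 keratins lower under PBS. It moved the median of all ranked genes from -0.04 to 0.31 under PBS and from -0.12 to 0.33 after flagellin. All ranked genes past 2-fold then split into 307 higher and 11 lower under PBS, from 141 and 35, and into 673 and 61 after flagellin, from 44 and 206. Centring each array on its median gave 111 and 49 under PBS. Of 27 keratin differences past 2-fold, 18 remained past it under this setting, 24 under cyclic loess, 26 under quantile normalisation and 27 after centring. The floors, the probe set rule and the 1.5-fold size leave each keratin's own value as it was. The difference of responses lost Krt15 (0.990 under cyclic loess, 0.999 against the markers). The cause was not tested.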

Other observations

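Keratin-associated proteins, which embed hair keratins and were left out by the rule, were read for 44 genes. Their median log2 difference, labelled Duox2-/- minus wild type, was 0.27 under PBS and 0.44 after flagellin, with 42 and 40 of 44 above 0. The 7467 genes under the floor had medians of 0.21 and 0.28 in these comparisons, with 79.8% above 0 in each.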
